A study of Mus musculus with 14 samples.

Results

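The BMP, TGF-beta and activin signalling genes were described here in mouse fetal ovaries in which COUP-TFII had been deleted and in control ovaries. The group held 44 gene names, chosen by name as ligands, receptors, SMADs, antagonists and targets of these pathways, and the array annotation gave 43 of them at least 1 probe set with a single gene symbol. Bmp3 was not analysed here. The 43 genes had 95 probe sets, of 18193 genes measured in all, and 40 of the 43 lay above the filter on dim signals and were tested, with 12406 genes tested in all. These signalling proteins share 1 architecture. A secreted ligand dimer joins type I and type II receptor kinases, the type I receptor phosphorylates receptor-regulated SMADs, and these enter the nucleus with Smad4 and change the transcription of targets such as the Id and Msx genes, while Smad6, Smad7 and secreted or membrane antagonists restrain the signal. In the fetal ovary BMP2 and activin B are known as signals of the somatic cells, and inhibins, made of an alpha and a beta subunit, oppose activins.

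There were 4 knockout and 4 control arrays at embryonic day 16.5 (E16.5), and 3 knockout and 3 control arrays at E14.5. The knockout carried WT1-CreERT2 and COUP-TFII flox/flox, so deletion of COUP-TFII (Nr2f2, a nuclear receptor) depended on tamoxifen and was limited to cells that express Wt1, a gene of somatic gonad cells, and their descendants. Dams of all groups were given 2 mg of tamoxifen per 10 g of body weight on E11.5 and again on E12.5, and the background was a mix of C57BL/6, Swiss Webster and B6129SF1/J. Neither the genotype of the controls, including whether they carried Cre, nor the number of ovaries behind an array is stated in the sources used here. The labels call the arrays biological replicates. Signals are linear MAS5 intensities on which every array has the same trimmed mean of 500, and each gene is given by its brightest probe set unless stated. Changes are differences of log2(signal + 16), knockout minus control or E16.5 minus E14.5, with the standard error (SE) and the Benjamini-Hochberg adjusted p of limma over all 12406 genes. A gene passed at an adjusted p under 0.05.

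Median signals were 121 to 137 on E16.5 knockout arrays, 118 to 131 on E16.5 control arrays, 97.5 to 103 on E14.5 knockout arrays and 90.3 to 102 on E14.5 control arrays. The brightest Nr2f2 probe set averaged 2534 ± 575 on E16.5 knockout arrays and 4332 ± 467 on E16.5 controls (SD, n = 4 each), a change of -0.79 ± 0.22 (limma adjusted p = 0.0753), and all 4 knockout arrays lay below all 4 controls. Its other 3 tested probe sets also had every E16.5 knockout array below every control, and 2 of them fell when every probe set was tested, with changes of -1.60 ± 0.22 and -2.57 ± 0.46 (limma adjusted p = 0.00297 and 0.0123), while the other had -0.96 ± 0.23 (limma adjusted p = 0.0514). At E14.5 the brightest one stood at 155, 252 and 267 on the knockout arrays and at 217, 493 and 422 on the controls, so that control replicate 1 lay within the knockout range, and this array was no higher than the highest knockout on 3 of the 4 tested Nr2f2 probe sets. For the somatic markers Foxl2 (1274), Tcf21 (1323) and Pdgfra (2062) it also lay within or below the E14.5 knockout ranges of 1153 to 2011, 1326 to 2238 and 2672 to 2859. It lay with the other controls for the surface epithelium and smooth muscle marker sums, which did not overlap between the E14.5 groups. Its label as a control could not be checked further, so E14.5 counts are also given without it. Knockout replicates 1 and 4 at E16.5 had bioB hybridization control signals of 10843 and 18373 on the 3' probe set, while the other E16.5 arrays had 4555 to 6397. The difference between the 3' and 5' Gapdh control probe sets, a sign of how much of each transcript the labelling reached, averaged 1.36 ± 0.31 log2 units on E16.5 knockout arrays, 1.74 ± 0.07 on E16.5 controls, -0.33 ± 0.04 on E14.5 knockouts and -0.29 ± 0.20 on E14.5 controls (SD, n = 4, 4, 3 and 3). At E16.5 it separated the groups completely, at 0.94 to 1.63 in knockouts and 1.67 to 1.82 in controls, as did the dap-M control signal, at 554 to 805 in knockouts and 390.2 to 512 in controls. Among the E14.5 controls, replicate 1 had a Gapdh difference of -0.06 and a dap-M signal of 2088. The other E14.5 controls had Gapdh differences of -0.42 and -0.39 and dap-M signals of 4029 and 4575. Ovarian markers were present in every group: Foxl2, a transcription factor of pregranulosa cells, averaged 1425 on E16.5 knockout arrays, 2524 on E16.5 controls, 1534 on E14.5 knockouts and 2170 on E14.5 controls. The germ cell helicase Ddx4 averaged 1325 on E16.5 knockouts, 1214 on E16.5 controls, 6479 on E14.5 knockouts and 7986 on E14.5 controls.

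Knockout against control at E16.5 asks how ovaries labelled COUP-TFII knockout differed from controls 4 days after the second tamoxifen dose. Of the 40 genes tested, 1 rose and 1 fell in limma, and 1.42% of all genes passed, 0.967% as higher and 0.451% as lower. Bmp5 rose and Tgfb2 fell. Unadjusted p was under 0.05 for 12 of the 40 genes and for 18.3% of all genes. The knockout arrays lay all above or all below the controls for 7 of the 40 (17.5%), 4 above and 3 below, and for 10.4% of all genes, 6.22% above and 4.22% below. The median change over the 40 was -0.03, beside 0.05 over all genes tested.

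Bmp5, a ligand of the same subgroup as Bmp6 and Bmp7, had signals of 506, 395, 564 and 399 on the 4 E16.5 knockout arrays and 204, 236, 148 and 102 on the 4 controls. The lowest knockout array lay well above the highest control. The means were 466 ± 83.3 in knockouts and 173 ± 59.3 in controls (SD, n = 4 each), and Bmp5 rose, with a log2 change of 1.40 ± 0.22 (limma adjusted p = 0.00533). The other 2 Bmp5 probe sets were dimmer and also had higher knockout means, with changes of 0.88 ± 0.27 (limma adjusted p = 0.120 over all probe sets) and, below the filter, 0.93 ± 0.34. On the brightest probe set the E16.5 controls lay below the E14.5 controls on average (299 ± 75.3, SD, n = 3), and the E16.5 knockouts did not (plot of signals on every array). The other probe sets differed in this. On the tested one the E16.5 knockouts (80.6 ± 18.9) also averaged below the E14.5 controls (109 ± 31.5). On the one below the filter the E16.5 controls (56.5 ± 22.8) averaged above the E14.5 controls (29.1 ± 22.3). Stage and the processing of the arrays cannot be told apart. Bmp5 passed with any single array left out, with a change between 1.19 and 1.56. It missed the threshold without knockout replicates 1 and 4 (1.43, limma adjusted p = 0.0636) and with the Gapdh difference as a covariate (1.33, limma adjusted p = 0.0929).

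Among the other BMP ligands Bmp4 had the largest difference at E16.5, with 316, 199, 136 and 177 on knockout arrays and 94.2, 163, 118 and 97.3 on controls. Knockout replicate 1 was the highest array and the groups overlapped, and the change of 0.70 ± 0.31 did not pass (limma adjusted p = 0.247). Bmp2, Bmp6, Bmp7 and Gdf10 differed by -0.14 to 0.14, and none passed.

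Tgfb2, 1 of the 3 TGF-beta ligands, had 983, 1425, 1532 and 1087 on the E16.5 knockout arrays and 2108, 1996, 1929 and 1943 on the controls. The controls were close to each other, the knockouts were spread, and every knockout lay below every control. Tgfb2 averaged 1257 ± 263 in knockouts and 1994 ± 81.1 in controls (SD, n = 4 each) and fell, with a log2 change of -0.68 ± 0.15 (limma adjusted p = 0.0322). Of its 3 other probe sets, 2 also had all knockout arrays below all controls (-0.39 ± 0.15 and -0.36 ± 0.17), and 1 had a change of -0.00 ± 0.24, and none of the 3 passed. The 2 knockout arrays with the lowest Tgfb2 signals, replicates 1 and 4, were those with the lowest Gapdh differences (0.94 and 1.31 log2 units, against 1.67 to 1.82 in the controls) and with the high bioB signals, and the part of these in the Tgfb2 result was not tested beyond the following fits. Without both arrays the change was -0.43 (limma adjusted p = 0.393), and with the Gapdh difference as a covariate it was -0.41 (limma adjusted p = 0.548). The call was also lost with any 1 control left out (-0.70 to -0.66, limma adjusted p = 0.0648 to 0.1003), without knockout replicate 1 (-0.57, 0.111) or 4 (-0.62, 0.101), with no trend in eBayes (-0.68, 0.0538) and with the mean of its probe sets (-0.36, 0.200). Tgfb1 had a change of -0.21 ± 0.34 and Tgfb3 of 0.20 ± 0.14, and neither passed.

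**Figure D1:**
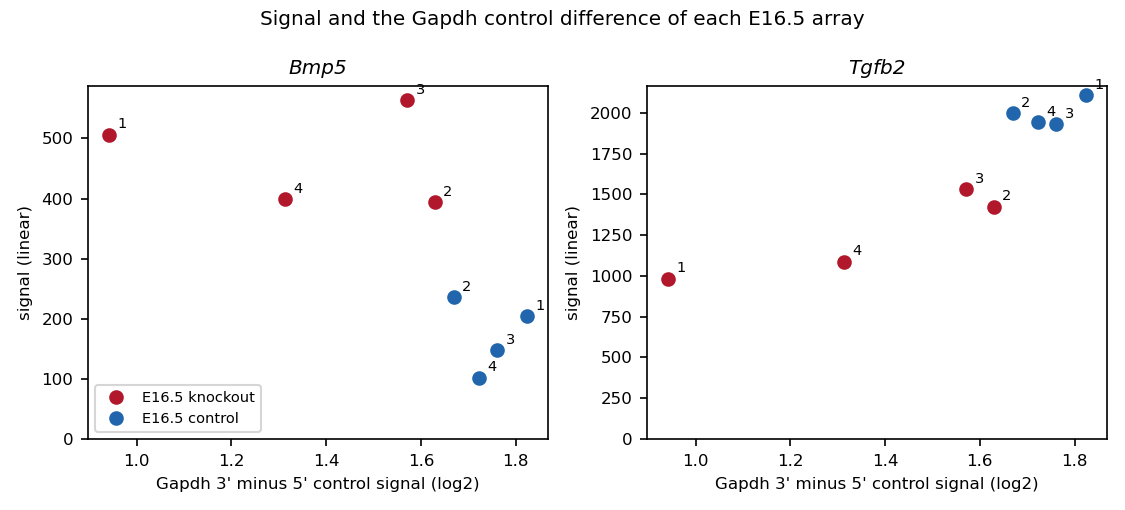
Signal of Bmp5 (left) and Tgfb2 (right) on each E16.5 array, vertical axis, against the array's Gapdh 3' minus 5' control difference in log2 units, horizontal axis; numbers are replicates, red is knockout and blue is control. Every knockout array lay above every control for Bmp5 and below every control for Tgfb2, and the knockout arrays with the lowest Gapdh differences, 0.94 and 1.31, had the lowest Tgfb2 signals, 983 and 1087.

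The activin and inhibin subunits came next by unadjusted p. Inhbb, the beta B subunit, which pairs with itself as activin B or with the alpha subunit as inhibin B, had 1910.4, 2571, 2153 and 2469 on the E16.5 knockout arrays and 1322, 1094, 1848 and 1713 on the controls. All knockouts lay above all controls, although the nearest arrays differed by only a small margin, and the change of 0.62 ± 0.16 missed the threshold (limma adjusted p = 0.0601). On the other, dimmer Inhbb probe set the groups overlapped, with a change of 0.73 ± 0.23 (limma adjusted p = 0.132 over all probe sets). Inha, the alpha subunit, had 707, 827, 753 and 948 on knockout arrays and 499, 567, 528 and 639 on controls. The groups did not overlap for Inha, and the change was 0.52 ± 0.14 (limma adjusted p = 0.0632). At E14.5 the knockout arrays of both genes again lay all above the controls, with Inhbb at 2111, 2394 and 2749 in knockouts and 1934, 1369.5 and 1695 in controls, and Inha at 1128, 1461 and 1157 in knockouts and 1096, 817 and 829 in controls. The E14.5 changes were 0.54 ± 0.18 and 0.45 ± 0.16 (limma adjusted p = 0.414 and 0.417), so the differences of these subunits were of like size at both stages and passed at neither in this fit. At E16.5 Inhbb passed with quantile normalization (0.68, limma adjusted p = 0.0413), and Inha passed without E14.5 control replicate 1, which changes only the shared estimate of spread (0.52, limma adjusted p = 0.0488). Inhba, the beta A subunit, had changes of -0.27 ± 0.19 (E16.5) and 0.42 ± 0.22 (E14.5), and neither passed.

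**Figure D2:**
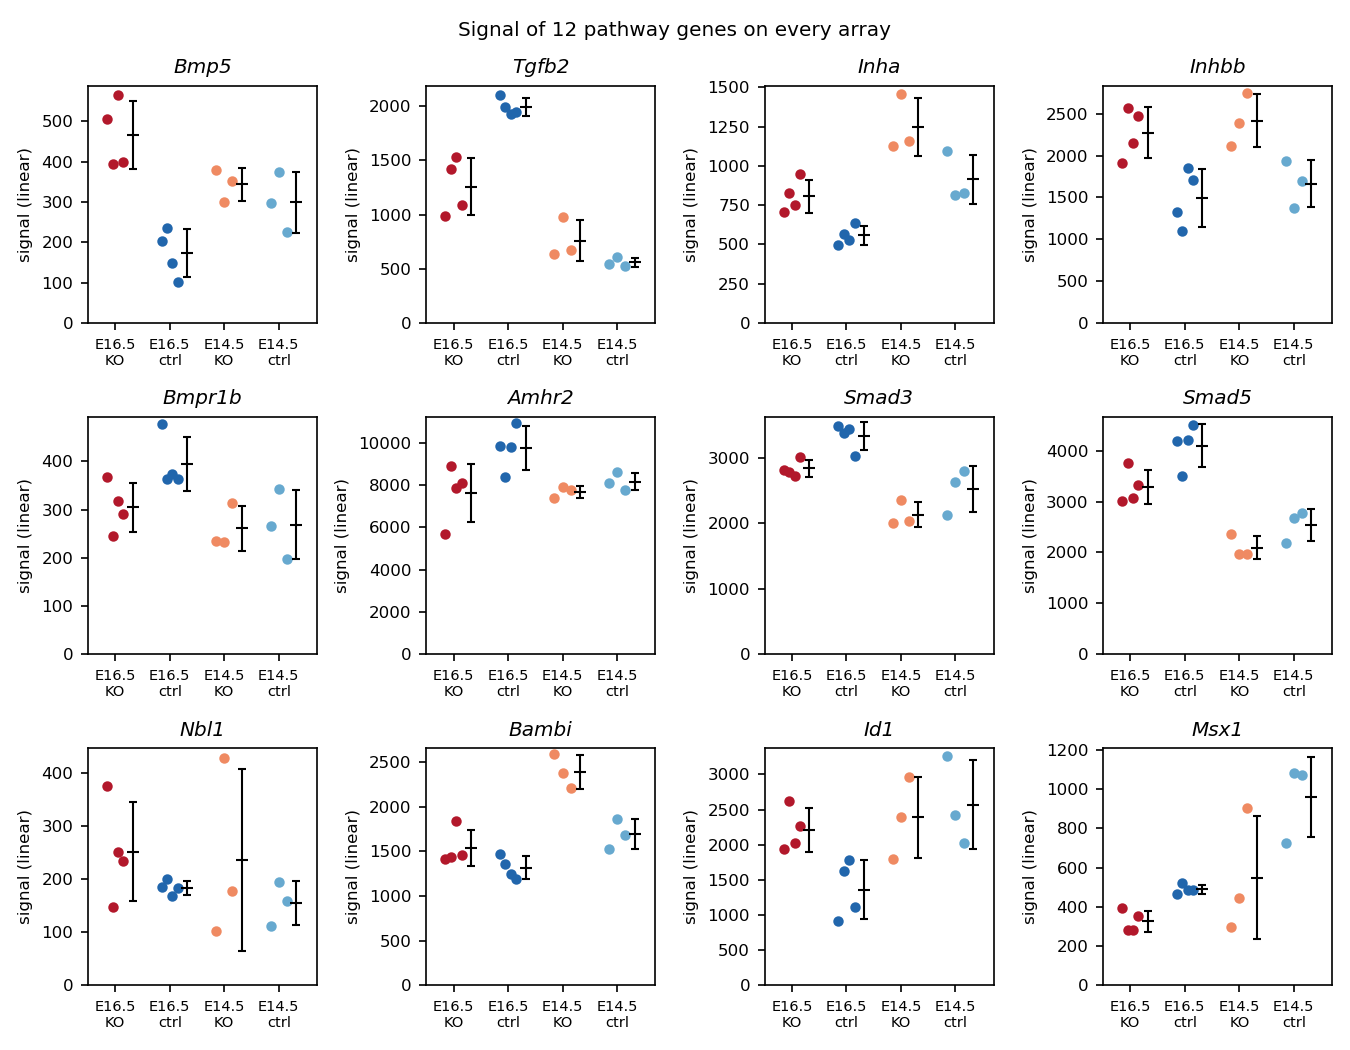
Linear signal (vertical axes, from 0) of 12 genes on each of the 14 arrays, with the mean and SD of each group in black; KO is knockout and ctrl is control. At E16.5 the knockout points of Bmp5, Inha, Inhbb and Id1 lie all above the control points, and those of Tgfb2, Smad3 and Msx1 all below.

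COUP-TF proteins bind DNA at repeats of the hexamer AGGTCA. RefSeq start regions, 250 bases before to 50 after a transcript start (mouse build GRCm38.p6), were matched for 32 of the 43 genes with 37 regions, and 4 of these regions, those of Amhr2, Bmpr1b, Grem1 and Inha, held AGGTCA or its reverse complement TGACCT, against 16.3% of all 32851 regions. Acvrl1, Bambi, Bmp2, Bmp7, Id1, Nog, Smad2, Smad4, Smad7, Tgfb3 and Tgfbr3 were not matched. The regions of the 2 genes that passed and of Inha, the only subunit gene with the hexamer, are shown with the hexamer in capitals. The Inha match began 69 bases before the start. A match is a run of letters and not a binding site, and the regions of Bmp5 and Tgfb2 held neither run in this window. They lie at chr9:75775115-75775414 on the plus strand (Bmp5), chr1:186705940-186706239 on the minus strand (Tgfb2) and chr1:75507359-75507658 on the plus strand (Inha).
Bmp5: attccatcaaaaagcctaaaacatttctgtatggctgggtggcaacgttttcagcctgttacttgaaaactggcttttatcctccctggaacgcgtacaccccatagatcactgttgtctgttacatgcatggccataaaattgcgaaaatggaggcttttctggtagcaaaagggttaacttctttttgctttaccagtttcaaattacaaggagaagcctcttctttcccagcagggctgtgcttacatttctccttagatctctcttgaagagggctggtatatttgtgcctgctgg
Tgfb2: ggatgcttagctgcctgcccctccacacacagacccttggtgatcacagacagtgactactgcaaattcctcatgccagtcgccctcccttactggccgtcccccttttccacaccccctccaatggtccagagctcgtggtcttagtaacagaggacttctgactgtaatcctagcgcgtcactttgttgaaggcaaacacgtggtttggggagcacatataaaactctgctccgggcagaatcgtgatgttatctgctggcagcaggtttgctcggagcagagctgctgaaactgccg
Inha: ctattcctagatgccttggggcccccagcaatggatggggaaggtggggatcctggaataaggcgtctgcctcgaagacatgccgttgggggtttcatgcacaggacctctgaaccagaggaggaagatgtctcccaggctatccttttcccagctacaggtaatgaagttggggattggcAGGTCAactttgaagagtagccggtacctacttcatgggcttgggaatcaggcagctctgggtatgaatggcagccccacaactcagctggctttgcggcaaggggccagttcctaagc

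No receptor passed at E16.5, and changes over the 12 receptors ran from -0.36 to 0.27. Amhr2, the type II receptor of anti-Müllerian hormone, had 5677, 8902, 7889 and 8089.8 on the E16.5 knockout arrays and 9835, 8389, 9816 and 10965 on the controls. Knockout replicate 1 was the lowest array and replicate 2 lay within the control range, and the change was -0.36 ± 0.12 (limma adjusted p = 0.126). Without knockout replicate 2 it was -0.44 and passed (limma adjusted p = 0.0489). The other tested Amhr2 probe sets disagreed in sign, with changes of -0.21 ± 0.13 and 0.27 ± 0.21 (limma adjusted p = 0.443 and 0.557 over all probe sets). Bmpr1b, a type I BMP receptor, had 368, 245, 317 and 289.8 on knockout arrays and 478, 364, 374 and 364 on controls. Control replicate 1 stood above its group, knockout replicate 1 lay within the range of the other controls, and the change was -0.36 ± 0.18 (limma adjusted p = 0.293). The type I receptors Acvr1 and Acvr1b and the type II receptors Bmpr2 and Acvr2a differed by -0.10 to 0.10 on their brightest probe sets. On other tested probe sets Acvr2a had -0.35 ± 0.13, Bmpr2 0.15 ± 0.13, and Acvr1 -0.10 ± 0.12 and 0.15 ± 0.31. Tgfbr1 had -0.23 ± 0.12 on its brightest probe set and 0.03 ± 0.20 and -0.49 ± 0.19 on the others. None of these passed.

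No SMAD passed at E16.5. Of the 5 SMADs that carry the signal, Smad1 and Smad5 of the BMP branch, Smad2 and Smad3 of the TGF-beta and activin branch, and the shared Smad4, all had negative changes, from -0.40 to -0.01, and the inhibitory Smad6 and Smad7 had positive ones (0.33 and 0.29). Smad3 had 2810.2, 2787, 2726 and 3015 on the knockout arrays and 3482, 3376, 3442 and 3023 on the controls. The groups did not overlap, by a margin of 1 close pair of arrays, and the change was small at -0.23 ± 0.10 (limma adjusted p = 0.237). Its other 2 probe sets had changes of -0.65 each (limma adjusted p = 0.249 and 0.0614 over all probe sets). Smad5 had 3011, 3755, 3067 and 3322 on knockout arrays and 4183, 3496, 4213 and 4509.5 on controls. Control replicate 2 lay below knockout replicate 2, so the groups overlapped, and the change was -0.32 ± 0.11 (limma adjusted p = 0.157). A second Smad5 probe set (-0.46 ± 0.14) and a second Smad4 probe set (-0.42 ± 0.12) had every knockout below every control. Neither passed (limma adjusted p = 0.113 and 0.0871 over all probe sets). The groups overlapped on the third probe sets of Smad5 (-0.35 ± 0.13) and Smad4 (-0.15 ± 0.14).

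Of the 5 antagonists, the secreted Grem1, Chrd and Nog lay below the filter and were not tested. At E16.5 Grem1 had 20.2 to 41.4 in knockouts and 7.06 to 27.7 in controls, Chrd had 30.1 to 107 in knockouts and 30.1 to 54.3 in controls, and Nog had 2.27 to 38.5 in knockouts and 4.12 to 27.1 in controls. The groups overlapped for all 3. Nbl1, a secreted BMP antagonist, had 374, 146, 251 and 235 on the E16.5 knockout arrays and 184, 199.9, 168 and 182 on the controls. The controls fell inside the wide knockout range, and the change was 0.36 ± 0.32 (limma adjusted p = 0.585). Bambi, a membrane decoy that resembles a type I receptor without its kinase, had 1419, 1435, 1839 and 1456 on knockout arrays and 1474, 1364, 1245 and 1195 on controls. Control replicate 1 lay above 3 of the knockouts, and the change was 0.21 ± 0.11 (limma adjusted p = 0.327).

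The targets did not move one way. Id1, an inhibitor of basic helix-loop-helix factors and a direct BMP target, had 1936, 2618, 2016 and 2265 on the E16.5 knockout arrays and 913, 1630.3, 1787 and 1109 on the controls. Every knockout lay above every control, and the change of 0.74 ± 0.20 missed the threshold (limma adjusted p = 0.0769). Msx1, a homeobox gene induced by BMPs, had 391, 282, 281 and 352 on knockout arrays and 468, 521, 484 and 485 on controls. Here every knockout lay below every control, and the change of -0.57 ± 0.24 did not pass (limma adjusted p = 0.216). On the other, dimmer Msx1 probe set the groups overlapped, with a change of -0.24 ± 0.33. Msx2 had a change of -0.93 ± 0.34 (limma adjusted p = 0.165) at low signals, 19.3 to 126 in knockouts and 80.2 to 159.7 in controls. Id2, Id3, Id4 and Tgfbi differed by -0.27 to 0.11 on their brightest probe sets. A second Id2 probe set behaved otherwise, with 839, 1276, 1282 and 742 on knockout arrays and 1843, 1971, 2035 and 1985 on controls. It fell by 0.95 ± 0.17 when every probe set was tested (limma adjusted p = 0.0107), whereas the brightest Id2 probe set had -0.21 ± 0.15, and the lowest 2 arrays were again knockout replicates 1 and 4.

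Cell type markers differed between the same E16.5 groups, and their part in these results was not tested. Of 5 tested adrenal cortex markers 3 rose (Mc2r, Hao2 and Hsd3b1), and the sum over the 7 measured of 8 was 4105 to 7317 in knockouts and 1652 to 2742 in controls, while the adrenal enzyme Cyp11b1 averaged 7.04 in knockouts and 5.85 in controls and Cyp21a1 averaged 64.3 in knockouts and 54.4 in controls. Of 8 surface epithelium markers 2 rose (Krt19 and Upk1b), with sums of 12944 to 17053 in knockouts and 10117 to 11558 in controls. Of 6 interstitial markers 2 fell (Pdgfra and Wnt5a), with sums of 7279 to 9305 in knockouts and 11793 to 12888 in controls. Pregranulosa sums were 15819 to 19023 in knockouts and 19833 to 21635 in controls, and none of those 8 markers passed. Of 8 macrophage markers 1 rose (C1qb), of 5 smooth muscle markers 1 rose (Des), of 8 endothelial markers 1 fell (Tek), and no germ cell or mesonephric epithelium marker passed, although mesonephric sums were 1383 to 2047 in knockouts and 1064 to 1342 in controls. At E14.5 no marker of any of these lists passed. The E14.5 sums did not overlap for surface epithelium, at 12780 to 16425 in knockouts and 10470 to 10875 in controls, or for smooth muscle, at 5685 to 8855 in knockouts and 4859 to 5143 in controls, and their part in the E14.5 values was not tested. In whole ovaries a smaller share of cells of a type and less RNA per cell cannot be told apart.

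**Figure D3:**
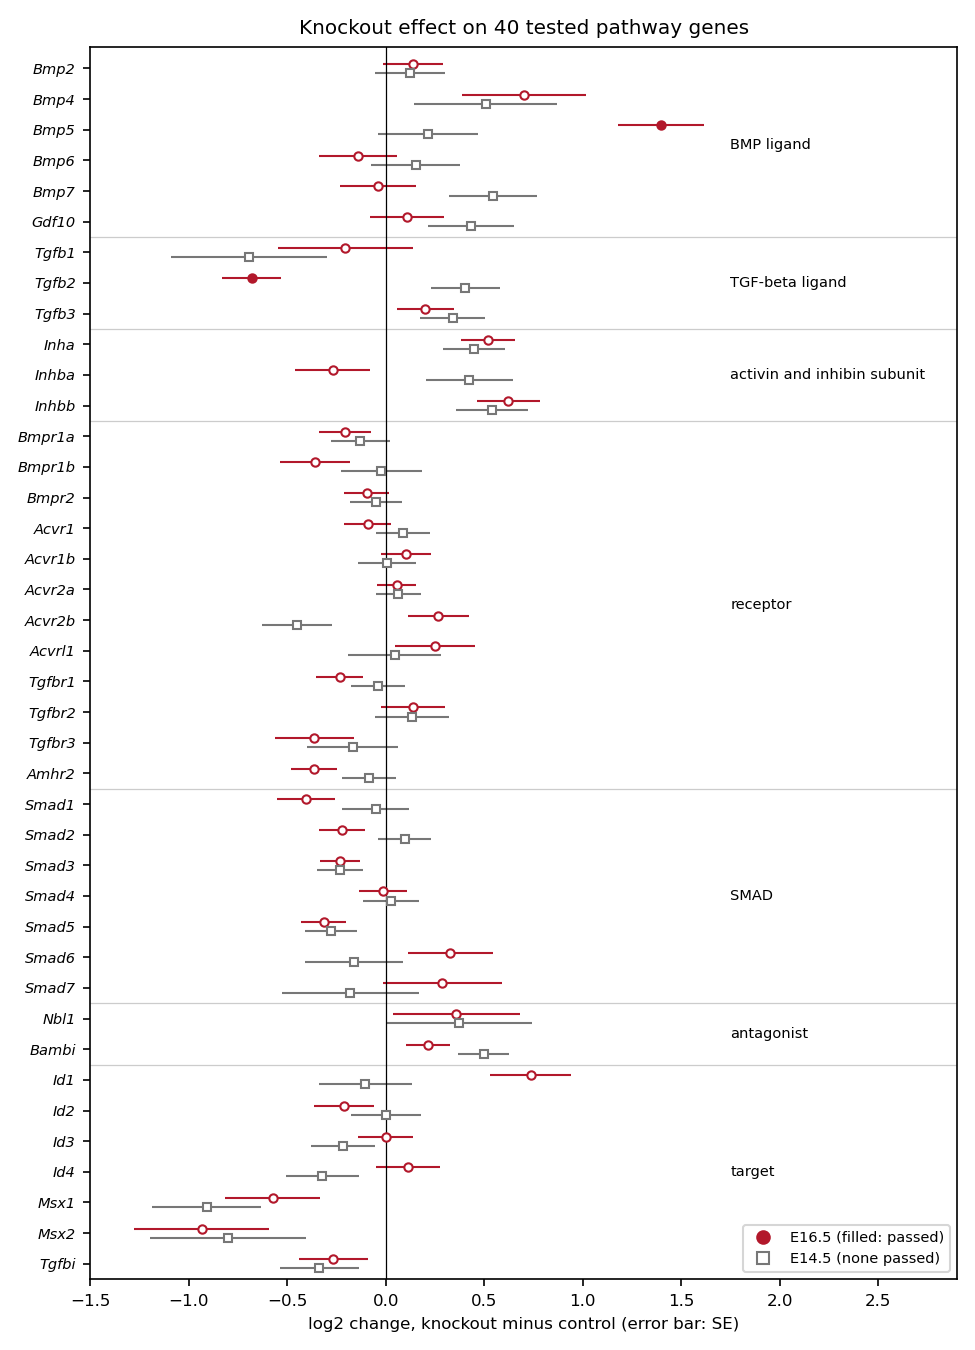
Knockout minus control change (horizontal axis, log2, with SE bars) of the 40 tested genes, ordered by role from ligands at the top to targets at the bottom; red circles are E16.5 (n = 4 each) and grey squares E14.5 (n = 3 each), and filled symbols passed. Only Bmp5 (1.40) and Tgfb2 (-0.68) at E16.5 are filled, and the E14.5 value of Tgfb2 (0.40) lies on the other side of 0.

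Knockout against control at E14.5 asks the same question 2 days after the second tamoxifen dose. None of the 40 genes passed in limma, as against 0.0403% of all genes, and 8 had an unadjusted p under 0.05, as against 8.55% of all genes. The knockout arrays lay all above or all below the controls for 12 of the 40 (30%), 8 above and 4 below, and for 12.7% of all genes, 7.84% above and 4.9% below. Those above were Bambi, Bmp7, Gdf10, Inha, Inhba, Inhbb, Tgfb2 and Tgfb3, 7 of them ligands or ligand subunits, and those below were Acvr2b, Bmpr1a, Id4 and Msx2. Without control replicate 1, an alternative chosen after the data were seen for this count, 17 of 40 (42.5%) and 22.6% of all genes did not overlap, and again none of the 40 passed. The median change over the 40 was 0.00, beside 0.03 over all genes tested.

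By role, 6 of 6 BMP ligands, 2 of 3 TGF-beta ligands and 3 of 3 activin and inhibin subunits had a positive change at E14.5, with medians of 0.32, 0.34 and 0.45, while the 7 targets had a median of -0.32. Of all genes 55.3% had a positive change, and none of these members passed. Bambi had the smallest p. Its signals were 2592, 2379 and 2213 on the knockout arrays and 1533, 1869 and 1681 on the controls, without overlap, and the change was 0.50 ± 0.13 (limma adjusted p = 0.264). Tgfb2 had 634, 979 and 671 on the knockout arrays and 546, 607 and 530.4 on the controls. All knockouts lay above all controls, the reverse of E16.5, with a change of 0.40 ± 0.17 (limma adjusted p = 0.528). This separation held for the brightest Tgfb2 probe set only. The E14.5 groups overlapped on its other probe sets, with changes of 0.05 ± 0.18, 0.43 ± 0.19 and 0.44 ± 0.27, and none of these passed. Bmp5 had 379, 300.1 and 351 on knockout arrays and 296, 375 and 225 on controls, which overlapped, and a change of 0.21 ± 0.25 (limma adjusted p = 0.860).

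Msx1 had 298, 445 and 905 on the E14.5 knockout arrays and 724, 1085 and 1072 on the controls. Knockout replicate 3 lay among the controls and the other 2 knockouts lay below them, and the change was -0.91 ± 0.28 (limma adjusted p = 0.340). Without knockout replicate 3 it was -1.34 and passed (limma adjusted p = 0.00554). The E14.5 groups also overlapped on the other Msx1 probe set, with a change of -0.56 ± 0.38 over all arrays. Id1, which did not overlap at E16.5, had 1799, 2399 and 2963 on E14.5 knockout arrays and 3259, 2419.9 and 2018 on controls. These overlapped, with a change of -0.10 ± 0.24 (limma adjusted p = 0.942).

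The difference of the knockout effect, E16.5 minus E14.5, passed for none of the 40 genes and for 0% of all genes in limma, and 5 of the 40 had an unadjusted p under 0.05, as against 8.91% of all genes. The smallest p was that of Tgfb2, with a difference of -1.09 ± 0.23 (limma adjusted p = 0.398). Bmp5 had 1.18 ± 0.33 (limma adjusted p = 0.398) and Id1 0.84 ± 0.31 (limma adjusted p = 0.525). The other 2 were Acvr2b (0.72 ± 0.24) and Inhba (-0.69 ± 0.29). A Bmp5 call at E16.5 alone therefore does not show that its effect differed between stages.

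E16.5 against E14.5 in control ovaries asks how the pathway differed between these stages without the deletion. Of the 40 genes 12 rose and 14 fell, a share close to that of all genes, of which 64.4% passed (28.5% higher and 35.9% lower). Unadjusted p was under 0.05 for 29 of the 40 and for 67.8% of all genes, and the arrays of the 2 stages did not overlap for 29 of the 40 and for 67.6% of all genes. The Gapdh difference separated the stages completely, so stage and the processing of the arrays cannot be told apart, and every change in this comparison stands under that limit. Median centring of the arrays, which moved the median change of all genes to -0.43, gave 7 higher and 20 lower. The mean over all probe sets of a gene gave 21 higher and 8 lower. Cell type markers differed between the same control arrays: all 8 germ cell markers fell (median -2.51), with sums of 13886 to 19307 at E16.5 and 63420 to 74858 at E14.5, 5 of 8 pregranulosa markers fell and 1 rose, and 5 of 8 macrophage markers rose and 2 fell. Their part in the stage changes was not tested.

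On their brightest probe sets all 3 TGF-beta ligands rose and 3 of 6 BMP ligands fell. Tgfb2 had 2108, 1996, 1929 and 1943 on E16.5 control arrays and 546, 607 and 530.4 on E14.5 control arrays, and it rose by 1.80 ± 0.16 (limma adjusted p = 4.88e-08). Another Tgfb2 probe set rose by 1.54 ± 0.25 (limma adjusted p = 4.03e-05 over all probe sets). Those with changes of 0.27 ± 0.17 and 0.37 ± 0.18 did not pass (limma adjusted p = 0.159 and 0.0739 over all probe sets). Bmp2 had 923, 734, 613 and 648 at E16.5 and 2409.6, 2110 and 1901 at E14.5, and it fell by 1.54 ± 0.17 (limma adjusted p = 3.79e-07). Neither gene had overlapping stages. Bmp4 and Bmp5 also fell (-1.12 and -0.77), Bmp6 rose (0.98), and Bmp7 and Gdf10 did not pass. Inha fell by 0.69 ± 0.15.

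Among the targets, Id4 and Id2 moved in opposite directions. Id4 had 1328, 2207, 2327 and 1588 on E16.5 controls and 256, 242 and 304 on E14.5 controls and rose by 2.70 ± 0.17 (limma adjusted p = 8.21e-10). Id2 had 1500, 2417, 1726 and 1516 at E16.5 and 3591, 4812 and 4961 at E14.5 and fell by 1.32 ± 0.17 (limma adjusted p = 2.17e-06). Both genes separated the stages without overlap, although the other Id4 probe sets did not pass and the other Id2 probe sets disagreed in direction. Id1, Msx1, Msx2 and Tgfbi fell as well, and Id3 did not pass.

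Of the inhibitory SMADs, Smad6 had 144, 169, 212 and 188 on E16.5 controls and 723, 616 and 528 on E14.5 controls and fell by 1.72 ± 0.23 (limma adjusted p = 5.54e-06). Smad7 had 821, 1484, 1098 and 464 at E16.5 and 359, 388 and 328 at E14.5 and rose by 1.28 ± 0.32 (limma adjusted p = 0.00234). The lowest E16.5 array of this Smad7 probe set still lay above all E14.5 arrays. Its other tested probe set went the other way, with 332, 390, 372 and 403 at E16.5 and 503, 473 and 468 at E14.5, every E16.5 array below every E14.5 array, and a change of -0.35 ± 0.16 that did not pass (limma adjusted p = 0.0630 over all probe sets). Bambi, with 1474, 1364, 1245 and 1195 at E16.5 and 1533, 1869 and 1681 at E14.5, fell by 0.36 ± 0.12 (limma adjusted p = 0.0165), but not without E14.5 control replicate 2 (-0.28, limma adjusted p = 0.0885).

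Of the 10 receptors with several tested probe sets, 5 had both signs between the stages (Acvr1, Acvr2b, Bmpr1a, Bmpr2 and Tgfbr1) and 5 had positive changes on all of them (Acvr2a, Acvrl1, Amhr2, Bmpr1b and Tgfbr3). The brightest probe set of Bmpr1a, a type I BMP receptor, had 1389, 2017, 1620.2 and 1228 on E16.5 controls and 3854, 3962 and 3936 on E14.5 controls, a change of -1.34 ± 0.14 (limma adjusted p = 3.10e-07). A second one had 3884, 4360.3, 4332 and 3848 at E16.5 and 1076, 809.6 and 892 at E14.5 and rose by 2.14 ± 0.13, and another rose by 2.42 ± 0.13 (limma adjusted p = 1.33e-10 and 4.71e-11 over all probe sets). The probe sets of the same receptor thus separated the same arrays completely and in opposite directions. Acvr1, the type I receptor with 367, 422, 397 and 421 on E16.5 controls and 1015, 1050.3 and 928 on E14.5 controls, fell by 1.28 ± 0.13 on its brightest probe set (limma adjusted p = 1.59e-07) and rose by 1.45 and 1.25 on its other 2. Tgfbr1, the type I TGF-beta receptor, had -0.96, 3.42 and 3.77 on its 3 probe sets, and all 3 passed.

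Of the 24 genes with several tested probe sets, 12 had probe sets of both signs in the stage comparison and 7 (29.2%) passed in both directions, Acvr1, Acvr2b, Bmpr1a, Id2, Smad1, Tgfbi and Tgfbr1. Of all 6143 such genes 32% passed in both directions. None of the 24, and 0% of all such genes, passed in both directions in either knockout comparison. Few passed there at all, so this count says little about agreement. At least 1 probe set passed for 3 of the 24 at E16.5, 0 at E14.5 and 23 between stages. Over all 6143 genes these counts were 121, 2 and 5693. Signs differed between probe sets for 9 of the 24 at E16.5 and 11 at E14.5, and for 50.4% and 47.9% of all such genes. The median spread between probe sets of a gene was 1.79 log2 units for the stage comparison, against 0.37 for the knockout at E16.5 and 0.22 for the knockout at E14.5.

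**Figure D4:**
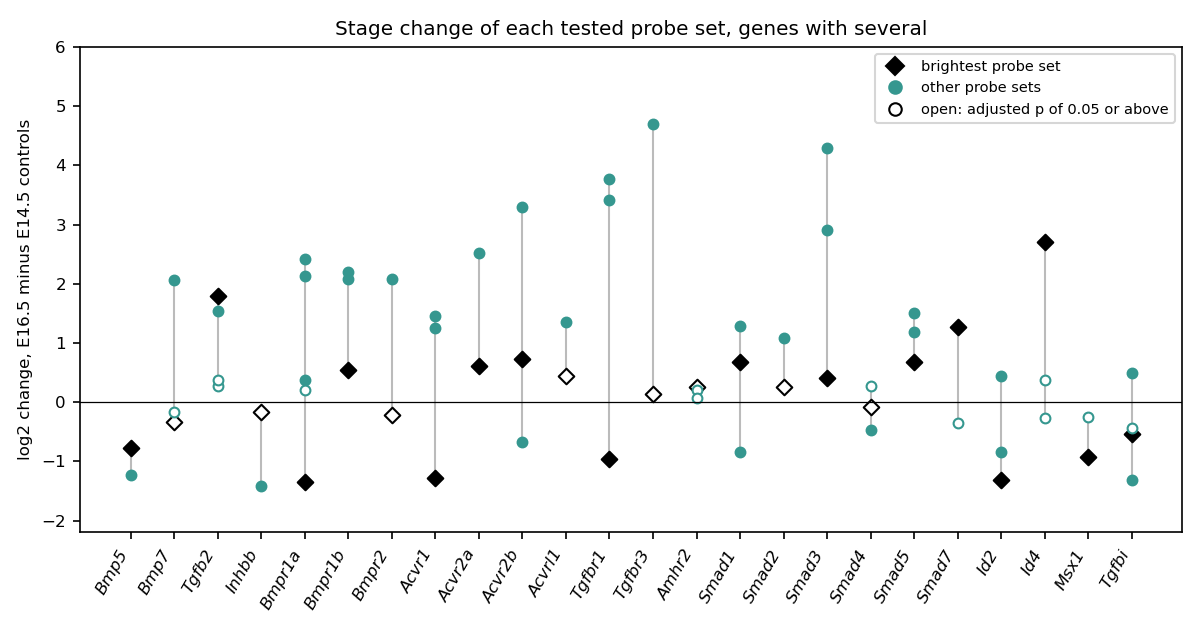
Change of each tested probe set between E16.5 and E14.5 controls (vertical axis, log2) for the 24 genes with several; black diamonds are the brightest probe set of a gene, green circles the others, and open symbols had an adjusted p of 0.05 or above. Bmpr1a runs from -1.34 to 2.42 and Tgfbr1 from -0.96 to 3.77, so the direction of these genes rests on the probe set.

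A wider list of 67 other names of these pathways (binding proteins, proteases, co-receptors, transcriptional regulators and targets) was also followed, of which 56 were measured and 31 tested. None passed in the knockout comparisons, with 9 of 31 under an unadjusted p of 0.05 at E16.5 and 4 at E14.5, as against 18.3% and 8.55% of all genes. Between the control stages 16 of the 31 rose and 8 fell, as against 28.5% and 35.9% of all genes. The largest of these were Dand5 (2.49 ± 0.29), Pmepa1 (1.69 ± 0.15), Sostdc1 (1.58 ± 0.38) and Hey1 (1.41 ± 0.15) among those that rose, and Tob1 (-1.85 ± 0.17), Smurf2 (-1.15 ± 0.12), Gdf9 (-1.03 ± 0.26) and Bmp1 (-0.92 ± 0.20) among those that fell. Dand5 and Sostdc1 encode secreted antagonists of ligands of this superfamily, Pmepa1 is a TGF-beta target, Smurf2 is a ubiquitin ligase of SMADs and receptors, Gdf9 is a ligand of oocytes, and Bmp1 is a protease.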

How the data were processed

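Per the submitters' processing notes, the authors made the deposited values with MAS5 in Affymetrix Expression Console, with versions that the sources used here do not give. They are linear probe set intensities, and the mean of every array, trimmed by 2% at each end, was 500. Total RNA came from a PicoPure kit, per the labels' protocols, and was amplified and biotin-labelled with an Affymetrix 3' IVT Express kit. Scaling to a common mean removes any overall difference in RNA amount, and the 14 arrays limit the precision.

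From the deposited intensities, log2(signal + 16) was computed with no further normalization, so changes at low signal are understated. Leaving out control probe sets, 45037 remained, of which 34945 had 1 gene symbol, 932 had several and 9160 had none listed. Of those with 1 symbol, 34741 were found by gene ID in RefSeq, and 0 symbols changed. Genes were represented by the probe set with the highest mean over all arrays, and the 12406 genes above the 40th percentile (signal 62.05) were fitted with limma 3.58.1 in R 4.3.3 (4 group means, eBayes with trend, two-sided tests, Benjamini-Hochberg over all 12406 genes, threshold 0.05). Every probe set was also fitted in the same way, as were alternatives in the pseudocount, scaling, filter, probe set, spread model, threshold, covariates, replicate block and arrays left out. Plots used matplotlib 3.10.9 (Python 3.11.15).

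The fit was tested on simulated data with the means and spreads of the 12406 genes, in 5 simulations of 200 changed genes. At E14.5, 29.6% of 1.5-fold, 74.9% of 2-fold and 90% of 3-fold changes were recovered and 6.37% of calls were false. At E16.5 43.6%, 84.8% and 96.1% were recovered, and 3.74% of calls were false. In the data 5 genes passed at E14.5 and 176 at E16.5. Where fewer genes change than the 200 simulated, the adjusted p is stricter. These shares can therefore overstate the recovery in the data, above all at E14.5.

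The genes, their roles, the wider list, the marker lists and the alternatives were chosen with earlier results of these data known. Genes described array by array were those that passed in a knockout comparison, those whose E16.5 groups did not overlap with an unadjusted p under 0.05, enough of each role to give 2 by unadjusted p at E16.5, and the 2 largest stage changes of each role. Bmp4, Msx2 and the second Id2 probe set were added after their values were seen.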

Additional observations from a re-analysis of the deposited data

Results flagged for a closer look

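Tgfb2 had a knockout effect that was 1.09 log2 units lower at E16.5 than at E14.5 (difference -1.09 ± 0.23). It stood out because, on its brightest probe set, all E16.5 knockout arrays lay below all controls and all E14.5 knockout arrays lay above all controls. On its other probe sets the E14.5 groups overlapped. The test of the difference itself did not pass over all genes (limma adjusted p = 0.398).

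Single arrays stood apart in 2 of the 38 groups of 4 arrays examined, and chance alone gives such an array in about 1 of 20 groups. Bmpr1b had 478.1 on E16.5 control replicate 1, against 363.5 to 373.7 on the other controls. Bambi had 1839 on E16.5 knockout replicate 3, against 1419 to 1456 on the other knockouts.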

How the results depend on the processing

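The number of these genes that passed for the knockout at E16.5 was 2, and it was 1 (Bmp5) with the mean of all probe sets of a gene or with no trend in eBayes, 5 at an adjusted p under 0.1 (Bmp5, Id1, Inha, Inhbb and Tgfb2), and 0 with the Gapdh difference as a covariate or without both high-bioB knockout arrays. The counts over all genes moved too, with 176 passing with the settings first described, 158 with the mean of probe sets, 149 with no trend, 466 at 0.1, 19 with the covariate and 16 without the high-bioB arrays. Leaving out single arrays gave 1 to 3. Bmp5 passed in each of these single-array fits, and Tgfb2 did not pass with any 1 of the E16.5 controls left out (adjusted p = 0.0648 to 0.1003) or without knockout replicate 1 (0.111) or 4 (0.101), all from limma. The number that passed at E14.5 was 0, and 0 to 1 with single arrays left out (Msx1, without knockout replicate 3). For the control stages 26 passed, 22 to 28 with single arrays left out, and 1 (Bmp2) with the Gapdh covariate, which nearly duplicates the stage. The stage change of Bmpr1a turned to 2.17 with quantile normalization, where another probe set was brightest, and to 0.62 with the mean of its probe sets, and that of Acvr1 turned to 0.48 with the mean. The split of higher and lower stage calls was 12 and 14, 7 and 20 with median centring (26.5% of all calls higher, against 44.3%), 13 and 14 with quantile normalization and 21 and 8 with the mean of probe sets (55.7%). No alternative gave a call for the difference between stages.

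Without both high-bioB arrays, chosen after the data were seen for this count, 14 of 40 genes did not overlap at E16.5 (35%, against 20.2% of all genes). Correlations of same-numbered deviations were -0.00 to 0.43 for E16.5 and -0.05 to 0.16 for E14.5. The same-numbered control was the closest match for knockout replicates 1 and 4 at E16.5 and 2 at E14.5, and not for the others. This does not settle whether replicate numbers pair the samples, and the fits described above do not pair them. With the replicate block the counts were 0 at E14.5, 2 at E16.5 and 0 for the difference. A block within a stage leaves no estimate of the stage change, so it gave no value there.

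With 3 or 4 arrays a group, changes under 2-fold were often missed in the simulations. Larger ones can be missed too where few genes change, so a gene that did not pass is not shown to be equal. Dim signals near the filter carry background that the deposited values do not separate.

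Of the single-gene values under the alternatives, 1125 kept their direction and their side of the threshold, 21 no longer passed, 7 newly passed and 38 changed sign. Apart from Bmpr1a and Acvr1, the sign changes concerned values that never passed. With quantile normalization the difference between stages was -0.017 for Smad3 and 0.036 for Nbl1. With the mean of probe sets it was -0.46 for Smad3, and the E14.5 knockout change was 0.086 for Bmpr1b and 0.042 for Amhr2. With the Gapdh covariate the E16.5 change of Nbl1 was -0.13 and the difference for Smad3 was -0.069. Without both high-bioB arrays the difference was -0.037 for Smad3 and 0.012 for Smad5. With single arrays left out, the E14.5 changes ran from -0.21 to 0.16 for Bmpr1b, -0.15 to 0.81 for Nbl1 and -0.27 to 0.083 for Id1. The differences between stages then ran from -0.064 to 0.19 for Inha, -0.055 to 0.22 for Inhbb, -0.077 to 0.12 for Smad3, -0.11 to 0.066 for Smad5, -0.45 to 0.51 for Nbl1 and -0.015 to 0.76 for Msx1.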
